A study of Mus musculus with 4 samples.

Results

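The genes described here are 32 genes of the NRF2 pathway and of the glutathione, thioredoxin and superoxide defences, taken by symbol from a gene count table of 55401 mouse genes, with heme and iron genes left out. All 32 were found, and all 32 passed the filter on low counts. They were measured by poly(A) RNA sequencing of bone marrow-derived macrophages, that is, macrophages derived in a dish from the marrow of C57BL/6J mice. The marrow cells of 2 libraries had received lentivirus that carried CRISPR-Cas9 aimed at Adcy7 (knockout libraries), and those of the other 2 had received the same kind of virus aimed at Rosa, a locus in common use as a neutral target (control libraries). Virus was given to both groups 1 day after the marrow was taken, at an MOI (infectious units of virus per cell) of 30. Differentiation took 5 days. The controls had thus also been given Cas9, a guide and the virus. All 4 libraries bore batch number 1, and the sources used here state neither the age and sex of the mice nor whether the virus-positive cells were selected. Nothing states whether the replicates were separate mice or cultures, so the p-values rest on a spread between libraries that may be technical.

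NRF2, encoded by Nfe2l2, is a transcription factor that KEAP1 holds in the cytoplasm and hands over for degradation. When oxidants or electrophiles modify KEAP1, NRF2 builds up, pairs with a small Maf protein and binds antioxidant response elements in front of genes that make glutathione, reduce thioredoxin and remove quinones, while BACH1 competes for the same elements. In macrophages this programme is known for its response to inflammatory stimuli and to the oxidants that the cells make themselves. Because NRF2 is set mainly by protein stability, the level of its own mRNA does not measure its activity.

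Library totals ran from 61782358 to 71914179 counts. Adcy7, which encodes an adenylyl cyclase that makes cyclic AMP, was at 59.4 and 58.8 CPM (counts scaled to a library total of 1e+06) in the knockout libraries, against 122 and 125 CPM in the control libraries, a log2 fold change of -1.05 (SE 0.09, adjusted p = 4.6e-06). The mRNA was lower but still present, and its level does not count edited gene copies. An adjusted p under 0.05 was reached by 49.6% of the 15832 genes tested. The macrophage genes Cd68, Csf1r, Adgre1 and Lyz2 were abundant in every library, while 11 of 12 macrophage markers were lower in the knockout libraries. There C1qa, C1qb, C1qc, Aif1, Mertk and Mrc1 were at or near 0. The summed level of those 12 markers was 20172 to 20357 CPM in the knockout libraries and 57058 to 58708 CPM in the control libraries. Most of each sum was Lyz2, at 16468 and 16440 CPM in the knockout libraries, against 50358 and 52209 CPM in the control libraries. Markers of some other cell types were higher in the knockout libraries. Of 10 eosinophil markers 8 were higher (summed level 249 to 309 CPM in the knockout libraries, 32.8 to 36.6 CPM in the control libraries). Of 11 mast cell and basophil markers 7 were higher (114 to 120 CPM against 28.3 to 37.5 CPM in control libraries), with Mcpt4 and Tpsab1 at 0. All 12 platelet and megakaryocyte markers were higher (325 to 367 CPM against 186 to 202 CPM in control libraries). In each of these 3 sets the ranges of the groups did not overlap and no marker was lower. Neutrophil markers summed to 5324 to 6786 CPM in the knockout libraries and 6052 to 7385 CPM in the control libraries, with 6 of 11 lower and none higher. Monocyte markers were lower in 5 of 6 (782 to 857 CPM in the knockout libraries, 2270 to 2318 CPM in the control libraries). Erythroid markers were higher in 4 of 10 (21.3 to 26.7 CPM against 2.83 to 3.63 CPM in control libraries, Slc4a1 at 0) and stromal markers in 3 of 8 (44.2 to 50.3 CPM against 2.13 to 2.98 CPM in control libraries, Lepr at 0). In the knockout libraries 1 gene made up most of some sums. These were Dcn for stromal markers (32.9 and 39.9 CPM), Prg2 for eosinophil markers (249 and 190 CPM) and Pf4 for platelet and megakaryocyte markers (207 and 189 CPM). Among the lymphoid and dendritic lists, 7 of 12 B cell markers were higher and 2 lower, 4 of 9 dendritic cell markers were higher, and 1 of 10 T and NK cell markers was lower. The part of these markers in the changes given next was not tested, and in bulk RNA fewer cells of a type and less RNA per cell cannot be told apart.

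Most of the antioxidant genes were higher in the knockout libraries. Of the 32, 21 rose, 5 fell and 6 did not pass (quasi-likelihood F-test of edgeR, p-values adjusted by Benjamini-Hochberg over the 15832 tested genes). Among all tested genes 25.0% were called higher and 24.6% lower, so the 65.6% of members that rose lie above that background and the 15.6% that fell lie below it. The median log2 fold change of the members was 0.56, beside 0.01 for all tested genes. At least 2-fold rises numbered 13 of 32, beside 11.8% of all tested genes, and the only at least 2-fold fall was that of Gpx3, beside 10.3%. Both knockout libraries lay above both control libraries for 22 members and below them for 9, beside 37.4% and 37.8% of all tested genes, and the groups overlapped for Osgin1 only. The 32 genes were chosen with earlier results of these data known.

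**Figure D1:**
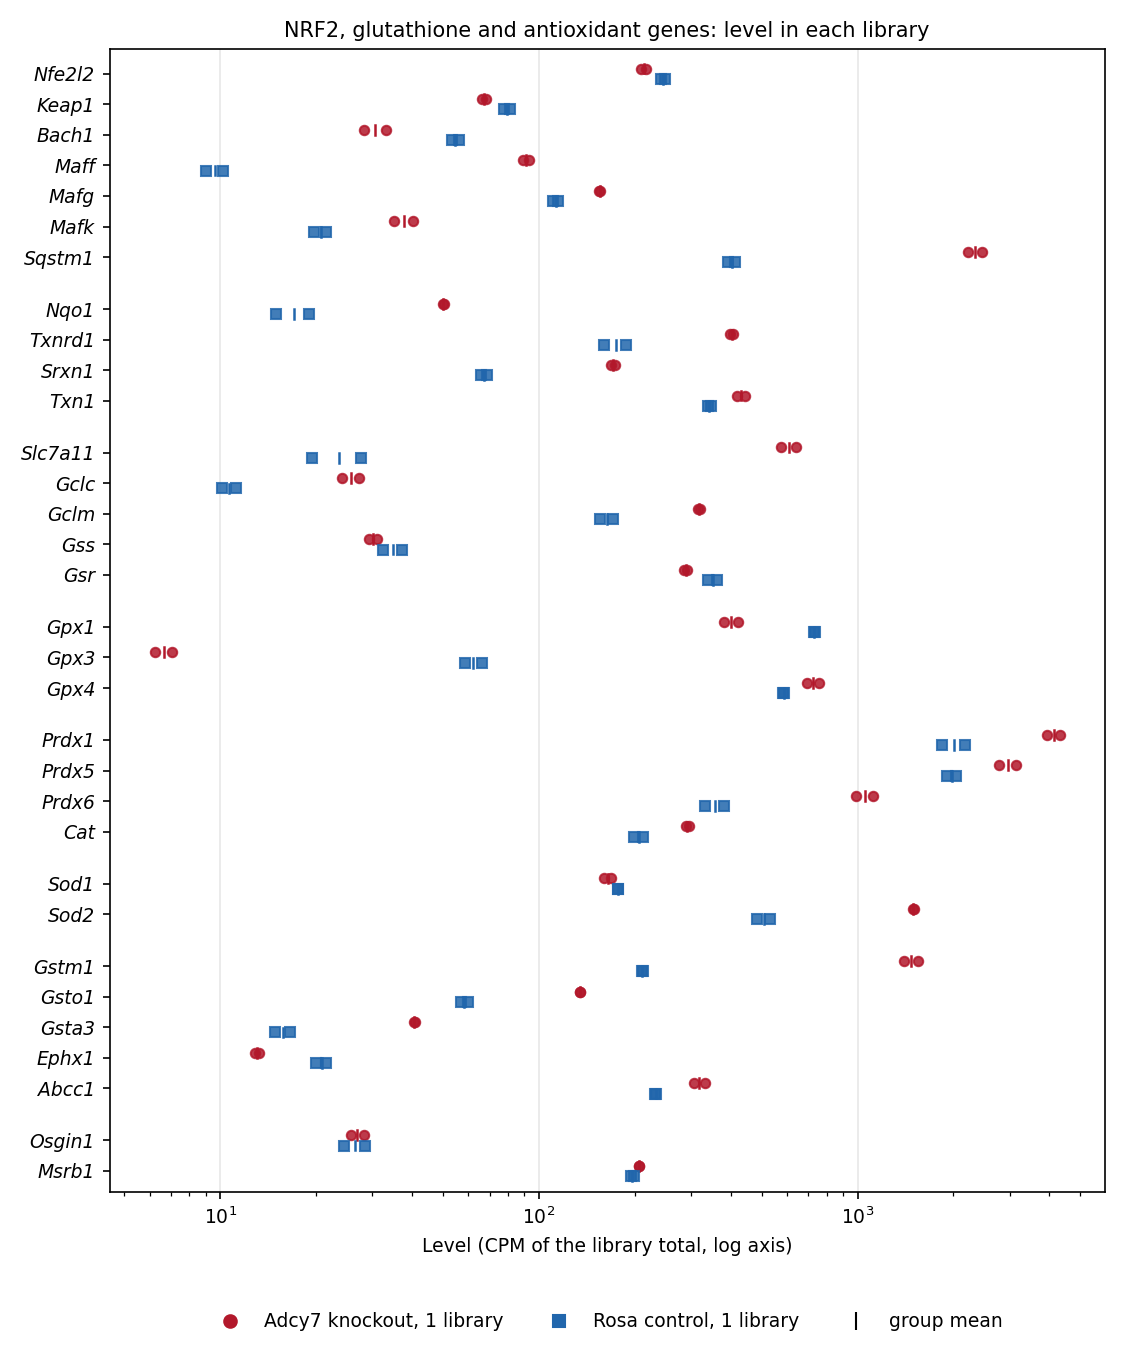
Level of each of the 32 genes in CPM (log axis) in the 2 Adcy7 knockout libraries (red circles) and the 2 Rosa control libraries (blue squares), grouped by role, with a bar at each group mean. The knockout points lie to the right for 22 genes, farthest for Slc7a11 at 577 and 641 CPM beside 19.4 and 27.6 CPM in control libraries, and to the left for 9, farthest for Gpx3.

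**Figure D2:**
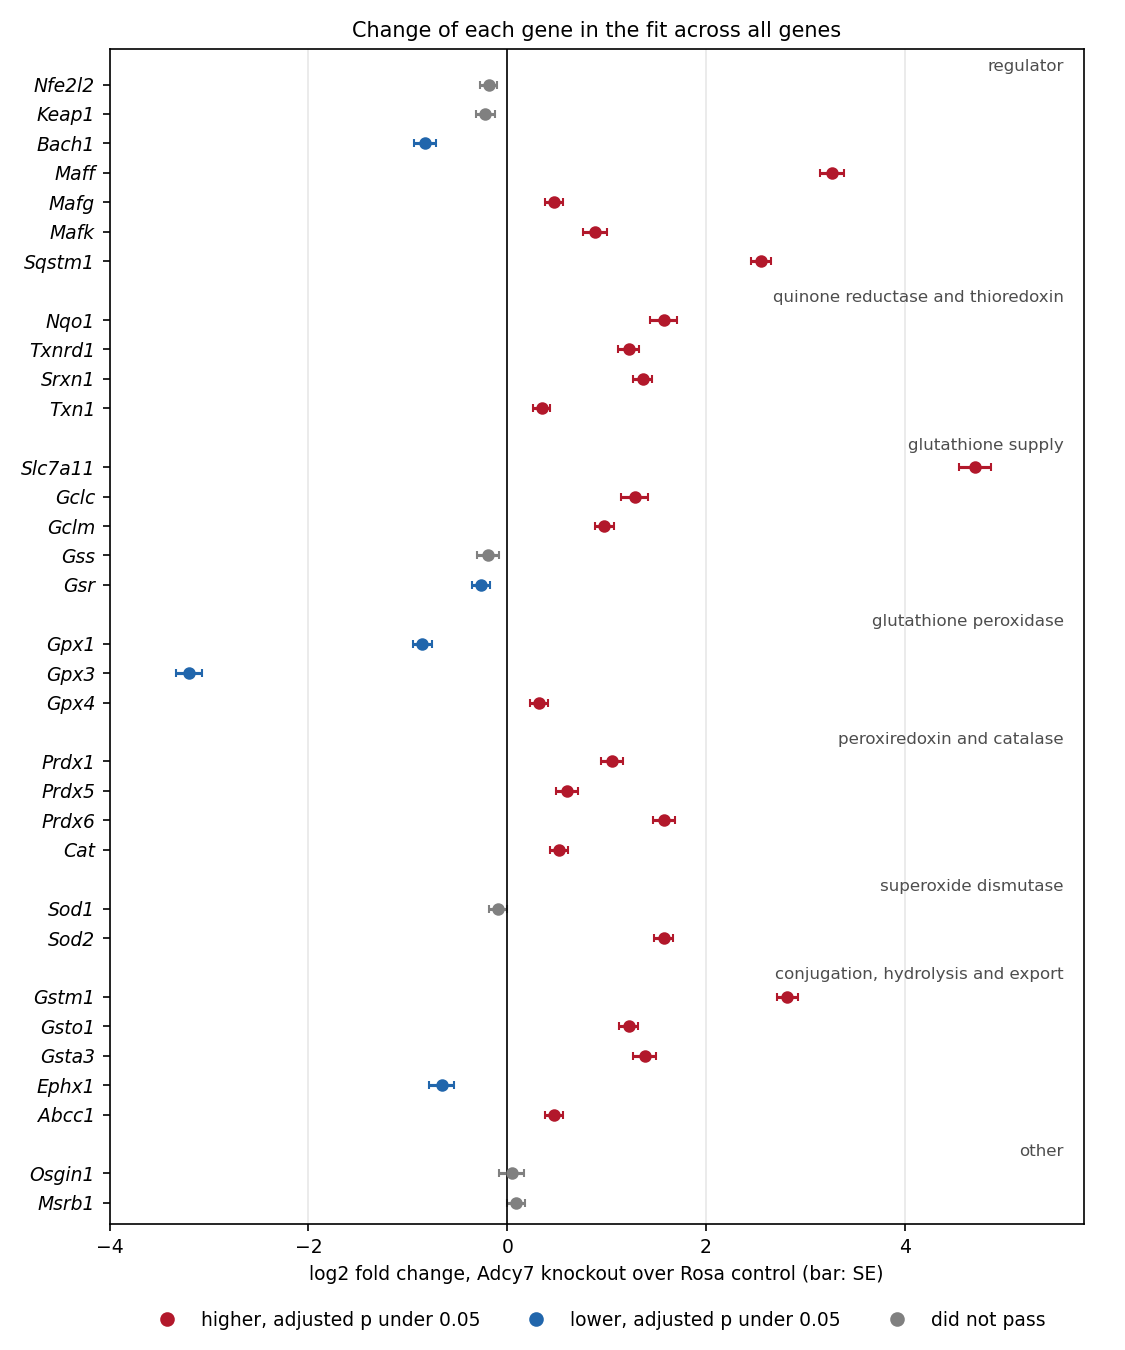
Fitted log2 fold change of each gene, Adcy7 knockout over Rosa control, with its SE as a bar, coloured by whether it passed an adjusted p of 0.05. The 21 red genes rose, the 5 blue ones fell (Bach1, Gsr, Gpx1, Gpx3 and Ephx1), and the 6 grey ones did not pass.

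The 2 genes at the head of the pathway were slightly lower without passing the test, whereas their partners and competitor passed. Nfe2l2 (ENSMUSG00000015839, chromosome 2) was at 210 and 217 CPM in the knockout libraries, against 242 and 249 CPM in the control libraries, a log2 fold change of -0.19 (SE 0.09, adjusted p = 0.0989). Keap1 (ENSMUSG00000003308, chromosome 9), the adaptor that presents NRF2 for ubiquitination, was at 68.4 and 66.3 CPM in the knockout libraries, against 81.1 and 77.7 CPM in the control libraries (log2 fold change -0.22, SE 0.09, adjusted p = 0.0748). Neither pair of libraries overlapped its control pair, and the differences were small beside those of most members. Leaving out knockout replicate 1 gave Keap1 an adjusted p of 0.0341. An antisense gene shares exon sequence with Keap1 and held 6.30% as many counts over the 4 libraries, which without stated strand cannot be told apart from Keap1.

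Bach1 (ENSMUSG00000025612, chromosome 16), the repressor that occupies antioxidant response elements, fell. It was at 28.2 and 33.0 CPM in the knockout libraries, against 53.3 and 55.9 CPM in the control libraries, a log2 fold change of -0.82 (SE 0.11, adjusted p = 0.000105).

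All 3 genes of the small Maf proteins rose, by very different amounts. These proteins have a DNA-binding domain and no activation domain of their own, and are the partners of both NRF2 and BACH1. Maff (ENSMUSG00000042622, chromosome 15) was at 93.3 and 89.3 CPM in the knockout libraries, against 10.2 and 9.0 CPM in the control libraries, a 9.63-fold rise (log2 fold change 3.27, SE 0.12, adjusted p = 4.89e-09). Mafk (ENSMUSG00000018143, chromosome 5) was at 40.1 and 35.1 CPM in the knockout libraries, against 21.5 and 19.7 CPM in the control libraries (log2 fold change 0.88, SE 0.12, adjusted p = 0.000122). Mafg (ENSMUSG00000051510, chromosome 11) was at 156 and 154 CPM in the knockout libraries, against 115 and 111 CPM in the control libraries (log2 fold change 0.47, SE 0.09, adjusted p = 0.00118). The fold change was thus largest for Maff and smallest for Mafg, and the groups did not overlap for any of the 3. The gene next to Mafg, Sirt7, shares 124 exon bases with it on the same strand and was at 62.0 and 57.8 CPM in the knockout libraries, against 89.5 and 85.1 CPM in the control libraries.

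Sqstm1 (ENSMUSG00000015837, chromosome 11) encodes p62, an autophagy receptor that can bind KEAP1 and take it out of the reach of NRF2. It was at 2449.7 and 2221 CPM in the knockout libraries, against 392 and 413 CPM in the control libraries. Both knockout libraries were far above both control libraries, a 5.87-fold rise (log2 fold change 2.55, SE 0.11, adjusted p = 1.31e-08).

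The core of the antioxidant response element, the letters TGACNNNGC, was searched on both strands of RefSeq promoter windows (build GRCm38.p6, 250 bases before to 50 bases after each annotated start). Windows were given for 28 of the 32 genes, 36 windows in all, and not for Gclc, Gsr, Prdx6 and Abcc1. The core was found in 10 of 28 members (35.7%), beside 14.0% of the 27025 genes with a window and 12.4% of the 32851 windows. Of those 10, 8 rose (Maff, Mafg, Mafk, Txnrd1, Srxn1, Gclm, Prdx1 and Gsta3), 2 did not pass (Nfe2l2 and Sod1) and none fell, where the 28 genes with a window held 18 that rose, 4 that fell and 6 that did not pass. A match is a description of the letters and not a bound site, and other members may hold elements farther from the start. The matches are printed below in capitals with 20 bases on each side where the window allows, 5′ to 3′ on the strand of the gene, because they show how far the letters within and around the element differ among these genes. The Srxn1 match lay after the start and is not printed.
Maff: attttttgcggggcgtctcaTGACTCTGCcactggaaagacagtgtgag
Mafg: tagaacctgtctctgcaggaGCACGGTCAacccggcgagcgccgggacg
Mafk: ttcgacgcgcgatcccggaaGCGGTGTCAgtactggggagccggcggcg
Txnrd1: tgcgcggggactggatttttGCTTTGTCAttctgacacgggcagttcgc
Gclm: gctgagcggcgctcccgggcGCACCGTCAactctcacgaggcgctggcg
Prdx1: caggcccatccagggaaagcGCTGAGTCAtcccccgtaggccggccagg
Gsta3: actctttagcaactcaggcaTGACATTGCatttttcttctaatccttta
Nfe2l2: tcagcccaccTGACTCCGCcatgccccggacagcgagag
Sod1: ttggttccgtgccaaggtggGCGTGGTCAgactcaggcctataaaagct
In Maff, Gsta3 and Nfe2l2 the core reads along the gene, and in the other printed genes it lies on the opposite strand and so reads as its reverse complement. The first base of the match lay 112, 222, 13, 92, 134, 133, 121, 240 and 56 bases before the start in the order printed. The stretches are chr15:79346489-79346537, chr11:120633741-120633789 (minus strand), chr5:139791503-139791551, chr10:82859094-82859142, chr3:122245403-122245451, chr4:116685446-116685494, chr1:21240444-21240492, chr2:75704875-75704913 (minus strand) and chr16:90220686-90220734 in that order, on the plus strand unless stated. The cyclic AMP response element TGACGTCA was searched in the same way. It was found in 1 of the 28 members with a window (3.57%), beside 2.03% of genes with a window. That member was Maff, where the match lay 29 bases before another of its annotated starts.

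The 4 genes of the quinone and thioredoxin group among the 32 (Nqo1, Srxn1, Txnrd1 and Txn1) rose, whereas relatives outside the 32 differed. Nqo2 (log2 fold change -0.40, adjusted p = 0.0296) and Txnrd2 (-0.52, adjusted p = 0.00918) fell. Txnrd3 rose (log2 fold change 1.06, adjusted p = 0.00362), and Txn2 did not pass (-0.09, adjusted p = 0.527). Nqo1 (ENSMUSG00000003849, chromosome 8), a quinone reductase widely used as a readout of NRF2, was at 50.0 and 50.2 CPM in the knockout libraries, against 14.96 and 19.0 CPM in the control libraries, a 2.98-fold rise (log2 fold change 1.57, SE 0.13, adjusted p = 2.91e-06). Srxn1 (ENSMUSG00000032802, chromosome 2), sulfiredoxin, which repairs over-oxidised peroxiredoxins, was at 174 and 169 CPM in the knockout libraries, against 65.7 and 68.9 CPM in the control libraries (log2 fold change 1.36, SE 0.09, adjusted p = 6.58e-07). Txnrd1 (ENSMUSG00000020250, chromosome 10), the cytosolic thioredoxin reductase, was at 408 and 397 CPM in the knockout libraries, against 160 and 188 CPM in the control libraries (log2 fold change 1.22, SE 0.11, adjusted p = 3.53e-06). In each of these 3 genes the knockout libraries lay well above both control libraries. Txn1, thioredoxin and the substrate of Txnrd1, rose less by the fit, with 419 and 443 CPM in the knockout libraries against 339 and 346 CPM in the control libraries (log2 fold change 0.35, SE 0.09, adjusted p = 0.00695). The call of Txn1 was lost without control replicate 1 (adjusted p = 0.142) and without control replicate 2 (adjusted p = 0.0681).

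Slc7a11 (ENSMUSG00000027737, chromosome 3) rose most of all 32 genes. It encodes the light chain of the cystine/glutamate antiporter, which brings in the cystine from which glutathione is made. It was at 577 and 641 CPM in the knockout libraries, against 19.4 and 27.6 CPM in the control libraries, a 26.0-fold rise (log2 fold change 4.70, SE 0.16, adjusted p = 3.45e-09) that ranked 317 of 15832 tested genes from the top. That ranking includes 230 genes without a count in the control libraries, such as Gsta1 (rank 78), whose fold changes have no firm size. The heavy chain of the same transporter, Slc3a2, was at 885 and 806 CPM in the knockout libraries, against 179 and 176 CPM in the control libraries, a 4.82-fold rise (adjusted p = 1.84e-08). A stretch of 373 bases of the longest Slc7a11 transcript is over 95% identical to alpha-tubulin genes, so reads there are uncertain. The genes Tuba1a, Tuba1b and Tuba1c themselves were called lower. Tuba1b, the one with the most counts, was at 448 and 388 CPM in the knockout libraries, against 937 and 869 CPM in the control libraries.

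The promoter window of Slc7a11 held no TGACNNNGC. It held the letters TGATGCAA, the core of elements that ATF4 is known to bind, once on each strand, facing each other. No other of the 28 members with a window held these letters on either strand. A match, single or paired, was found in 1.03% of genes with a window. The last 100 bases before its start are shown for that pair, in capitals (RefSeq, GRCm38.p6, chr3:50443614-50443713, minus strand).
Slc7a11: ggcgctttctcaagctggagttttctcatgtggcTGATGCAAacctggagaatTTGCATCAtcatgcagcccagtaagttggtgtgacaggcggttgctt
The pair starts 66 and 47 bases before the annotated start. The match describes the letters and does not show which factor acts there.

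In glutathione synthesis both subunits of the first enzyme rose, whereas the synthetase did not pass and the reductase fell slightly. Gclc (ENSMUSG00000032350, chromosome 9), the catalytic subunit of glutamate-cysteine ligase and the rate-limiting enzyme, was at 24.2 and 27.3 CPM in the knockout libraries, against 10.2 and 11.2 CPM in the control libraries (log2 fold change 1.28, SE 0.13, adjusted p = 1.4e-05). Its modifier subunit, Gclm, was at 315 and 321 CPM in the knockout libraries, against 155 and 171 CPM in the control libraries (log2 fold change 0.98, SE 0.09, adjusted p = 8.81e-06). Gm17494, a gene on the other strand, shares 296 exon bases with Gclm and was at 73.9 and 69.8 CPM in the knockout libraries, against 25.6 and 34.3 CPM in the control libraries. Gclc and Gclm lay above both control libraries in both knockout libraries, as did Gm17494. Glutathione synthetase, Gss, was at 30.9 and 29.2 CPM in the knockout libraries, against 37.3 and 32.4 CPM in the control libraries, and did not pass (log2 fold change -0.19, SE 0.11, adjusted p = 0.182). Gss is uncertain because Acss2 shares 395 exon bases with it on the other strand, with 18.8 and 18.0 CPM in the knockout libraries against 48.7 and 44.8 CPM in the control libraries. Gsr, the reductase that recycles oxidised glutathione, was at 286 and 291 CPM in the knockout libraries, against 340 and 362 CPM in the control libraries (log2 fold change -0.27, SE 0.09, adjusted p = 0.0289). That call ended without the low-count filter (adjusted p = 0.0521), without control replicate 1 (0.0962) and without control replicate 2 (0.332).

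The glutathione peroxidases, which spend glutathione to reduce peroxides, did not move together. Gpx3 (ENSMUSG00000018339, chromosome 11), the secreted form, fell most of the 32 genes. It was at 7.08 and 6.23 CPM in the knockout libraries, against 66.0 and 58.5 CPM in the control libraries, a log2 fold change of -3.20 (SE 0.13, adjusted p = 1.31e-08), or 10.8% of the fitted control level.
Gpx1, the cytosolic form, was at 421 and 380 CPM in the knockout libraries, against 733 and 731 CPM in the control libraries (log2 fold change -0.85, SE 0.10, adjusted p = 2.7e-05). Gpx4, which reduces lipid peroxides in membranes and guards against ferroptosis, was at 756 and 694 CPM in the knockout libraries, against 589 and 583 CPM in the control libraries (log2 fold change 0.32, SE 0.09, adjusted p = 0.014). The small rise of Gpx4 lost its call without control replicate 1 (adjusted p = 0.146) and without control replicate 2 (0.119). The pseudogene Gpx4-ps2 is 99.7% identical to Gpx4 over 733 bases and held 33.8% to 34.3% as many counts in each library, so reads of the pair cannot be told apart.

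Among the enzymes that remove hydrogen peroxide, catalase and the 3 peroxiredoxin genes of the 32 (Prdx1, Prdx5 and Prdx6) rose. The other peroxiredoxin genes did not: Prdx3, the mitochondrial form, was at 32.8 and 34.6 CPM in the knockout libraries, against 49.7 and 45.4 CPM in the control libraries (log2 fold change -0.48, SE 0.10, adjusted p = 0.00265). Prdx2 and Prdx4 did not pass, with log2 fold changes of -0.18 (adjusted p = 0.186) and -0.16 (adjusted p = 0.202). Prdx6 (ENSMUSG00000026701, chromosome 1), which also acts on phospholipid peroxides, was at 1118 and 988 CPM in the knockout libraries, against 332 and 380.1 CPM in the control libraries (log2 fold change 1.58, SE 0.11, adjusted p = 7.56e-07). Prdx1 (ENSMUSG00000028691, chromosome 4), the main cytosolic peroxiredoxin, was at 3945 and 4305 CPM in the knockout libraries, against 1843 and 2170.3 CPM in the control libraries (log2 fold change 1.05, SE 0.11, adjusted p = 1.75e-05). Prdx1 and Prdx6 were thus both more than 2-fold higher by the fit. Prdx5, found in mitochondria and peroxisomes, was at 3148 and 2784 CPM in the knockout libraries, against 1909 and 2043 CPM in the control libraries (log2 fold change 0.60, SE 0.11, adjusted p = 0.000755). Cat, peroxisomal catalase, was at 290.1 and 295 CPM in the knockout libraries, against 199 and 212 CPM in the control libraries (log2 fold change 0.52, SE 0.09, adjusted p = 0.00062).

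Of the superoxide dismutases Sod2 rose and Sod1 did not pass, and the difference between them was not tested. Sod2 (ENSMUSG00000006818, chromosome 17), the manganese enzyme of mitochondria, was at 1505 and 1491 CPM in the knockout libraries, against 484 and 533 CPM in the control libraries, a 2.98-fold rise (log2 fold change 1.57, SE 0.10, adjusted p = 2.62e-07). Both knockout libraries exceeded both control libraries. Sod1, the copper and zinc enzyme of the cytosol, was at 168 and 160.3 CPM in the knockout libraries, against 177 and 177 CPM in the control libraries, and did not pass (log2 fold change -0.09, SE 0.09, adjusted p = 0.426).

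Among the 5 conjugation, hydrolysis and export genes of the 32, Gstm1 had the largest rise. Gstm1 (ENSMUSG00000058135, chromosome 3), a glutathione transferase of the mu class, was at 1553 and 1395 CPM in the knockout libraries, against 212 and 210.0 CPM in the control libraries, a 7.06-fold rise (log2 fold change 2.82, SE 0.10, adjusted p = 5.62e-09). Gsta3 (ENSMUSG00000025934, chromosome 1), of the alpha class, was at 40.8 and 40.4 CPM in the knockout libraries, against 14.9 and 16.6 CPM in the control libraries (log2 fold change 1.38, SE 0.12, adjusted p = 3.27e-06). Gsto1 (ENSMUSG00000025068, chromosome 19), of the omega class, was at 135 and 135 CPM in the knockout libraries, against 57.0 and 59.7 CPM in the control libraries (log2 fold change 1.22, SE 0.09, adjusted p = 1.49e-06). The 3 transferases from 3 classes thus rose, with knockout libraries above control libraries each time. Abcc1, a pump that exports glutathione conjugates, was at 332 and 307 CPM in the knockout libraries, against 231 and 234 CPM in the control libraries (log2 fold change 0.47, SE 0.09, adjusted p = 0.00147). Ephx1, microsomal epoxide hydrolase and in many tissues an NRF2 target, fell, with 13.2 and 12.9 CPM in the knockout libraries against 20.03 and 21.5 CPM in the control libraries (log2 fold change -0.66, SE 0.13, adjusted p = 0.00144).

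The last pair did not pass. Osgin1, which in human cells is induced by oxidised lipids through NRF2, was at 28.2 and 25.6 CPM in the knockout libraries, against 28.5 and 24.4 CPM in the control libraries (log2 fold change 0.04, SE 0.12, adjusted p = 0.789). Msrb1, which repairs oxidised methionine, was at 206 and 207 CPM in the knockout libraries, against 198 and 194 CPM in the control libraries (log2 fold change 0.09, SE 0.09, adjusted p = 0.427).

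**Figure D3:**
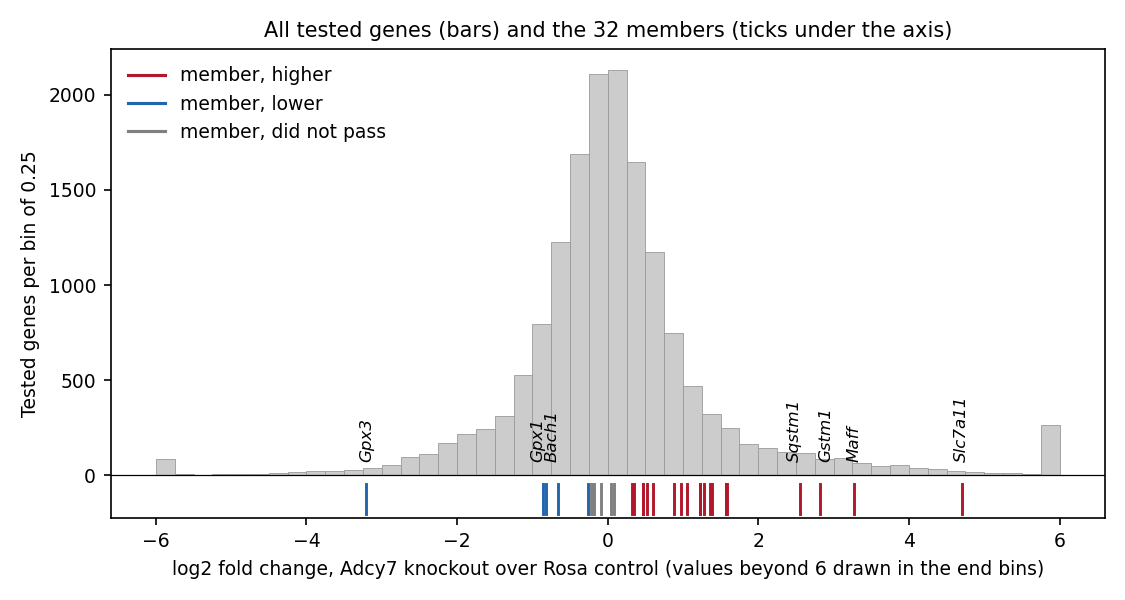
Number of tested genes by log2 fold change, Adcy7 knockout over Rosa control (grey bars, bins of 0.25, values beyond 6 placed in the end bins), with a tick under the axis for each of the 32 genes. The median of all tested genes was 0.01 and that of the 32 genes 0.56, and the ticks reach from -3.20 (Gpx3) to 4.70 (Slc7a11).

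Other genes of the pathway did not lean the same way. Of 77 further genes of NRF2 regulation, thioredoxin, glutathione, NADPH supply and carbonyl reduction, 75 were tested, and the calls were 21 higher (28%), 24 lower (32%) and 30 not past the threshold. Their median log2 fold change was -0.04. The shares of 28% and 32% stand beside 25.0% and 24.6% of all tested genes. Fewer of the 75 were called lower without control replicate 2, where a smaller share of all tested genes was called lower as well. The 6 rises with the smallest adjusted p were those of Gstm2, Slc3a2, Abcc5, Ptgr1, Me1 and Oplah. Gstm2, another mu class transferase, was at 115 and 111 CPM in the knockout libraries, against 15.6 and 17.9 CPM in the control libraries (6.78-fold, adjusted p = 1.42e-08). Ptgr1, a reductase of reactive aldehydes and prostaglandins, rose 3.12-fold (adjusted p = 1.25e-07), and the exporter gene Abcc5 rose 4.17-fold (adjusted p = 8.66e-08). Me1, the malic enzyme that makes NADPH, was at 12.8 and 12.4 CPM in the knockout libraries, against 2.05 and 2.39 CPM in the control libraries (5.73-fold, adjusted p = 1.21e-06). Oplah, which opens 5-oxoproline in the glutathione cycle, rose 3.85-fold (adjusted p = 3.76e-06).

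Among the falls with the smallest adjusted p were Sesn1, Txnip, Abcc3, Idh1, Gstp2 and Gstp1. Sesn1, a sestrin and p53 target, was at 4.67 and 7.20 CPM in the knockout libraries, against 65.1 and 62.0 CPM in the control libraries (log2 fold change -3.42, SE 0.16, adjusted p = 3.62e-08). Txnip, which binds and inhibits thioredoxin, was at 142 and 163 CPM in the knockout libraries, against 473 and 483 CPM in the control libraries (log2 fold change -1.63, SE 0.10, adjusted p = 1.78e-07). Txnip thus fell while Txnrd1 rose. Idh1, a cytosolic source of NADPH, was at 71.4 and 80.6 CPM in the knockout libraries, against 208 and 252 CPM in the control libraries (log2 fold change -1.59, adjusted p = 1.09e-06). Of the 6 genes of NADPH supply 1 rose (Me1), 2 fell (Idh1 and Taldo1) and 3 did not pass (G6pdx, Pgd and Tkt). The exporter gene Abcc3 had a log2 fold change of -1.55 (SE 0.11, adjusted p = 6.38e-07).

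The glutathione transferases went both ways. Of 23 tested genes, the 3 members included, 12 rose, 7 fell and the other 4 missed the threshold (median log2 fold change 0.52). The 52.2% called higher and the 30.4% called lower stand beside 25.0% and 24.6% of all tested genes. Of 7 Gstm genes 5 rose (71.4%), Gstm7 fell and Gstm5 did not pass, although Gstm6 and Gstm7 were near or below 1 CPM in every library. Gstm3, one of the 5, was also low, at 0.987 and 2.93 CPM in the knockout libraries, against 0 and 0.0716 CPM in the control libraries. Gstp1, a pi class transferase that is itself abundant in many cells, was at 73.2 and 64.1 CPM in the knockout libraries, against 157 and 164 CPM in the control libraries (log2 fold change -1.21, SE 0.11, adjusted p = 3.67e-06). Its close copy Gstp2 was at 4.85 and 5.24 CPM in the knockout libraries, against 16.7 and 18.0 CPM in the control libraries. Counts of close copies such as these, and of Gsta1 and Gsta2, are uncertain because reads may be split between them. Gsta1, Gsta2 and the extracellular dismutase gene Sod3 had no count in either control library and under 1 CPM in both knockout libraries. The eosinophil, mast cell and platelet markers given above were higher in the same knockout libraries, and their part in these values was not tested.

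**Figure D4:**
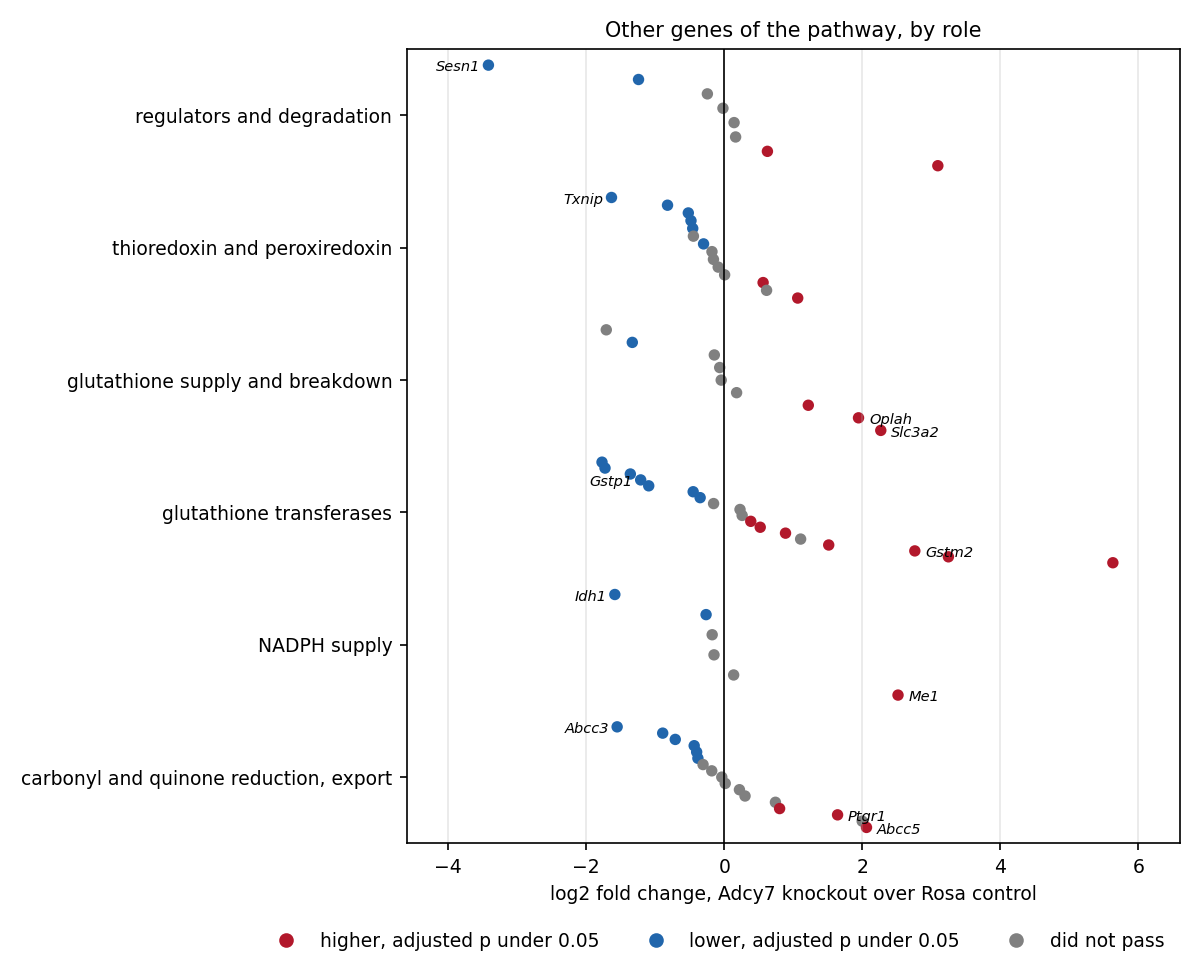
Fitted log2 fold change, Adcy7 knockout over Rosa control, of the other tested pathway genes with a count in the control libraries, by role and coloured by the test. Rises (red) and falls (blue) occur in each role, from Sesn1 at -3.42 upward, with Gstm2 at 2.76, Me1 at 2.52 and Slc3a2 at 2.27 among the rises. Genes without a control count (Sod3, Gsta1 and Gsta2) are not drawn.

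Of the 32 genes, 5 encode selenoproteins, proteins with selenocysteine in the active site: Gpx1, Gpx3, Gpx4, Txnrd1 and Msrb1. Of these, Txnrd1 and Gpx4 rose (Gpx4 not without either control library, as given above), Gpx1 and Gpx3 fell, and Msrb1 did not pass. Of 24 selenoprotein genes 20 were tested, and 5 of them rose (25%), 10 fell (50%) and 5 did not pass. Their median log2 fold change was -0.25. The share called lower stands beside 24.6% of all tested genes. Fewer selenoprotein genes were called lower without control replicate 2, where a smaller share of all tested genes was called lower as well.
Selenop, the secreted protein that carries selenium between tissues, fell most. It was at 33.1 and 31.0 CPM in the knockout libraries, against 731 and 709.8 CPM in the control libraries (log2 fold change -4.47, SE 0.10, adjusted p = 3.84e-10). Selenoh was at 14.6 and 14.0 CPM in the knockout libraries, against 28.7 and 27.6 CPM in the control libraries (log2 fold change -0.96, adjusted p = 5.67e-05). Sephs2, which makes the selenium donor for selenocysteine, fell by 0.35 on the log2 scale (SE 0.09, adjusted p = 0.00663), and Selenoo fell by 0.53 (SE 0.13, adjusted p = 0.00724).
The falls thus ranged from the 22.2-fold fall of Selenop, which was still present, to small decreases. Dio2, the deiodinase that activates thyroid hormone, rose most, with 11.4 and 15.7 CPM in the knockout libraries against 0.593 and 0.415 CPM in the control libraries (27.1-fold, adjusted p = 2.58e-07). Selenow rose 1.63-fold (adjusted p = 0.000278) and Txnrd3 2.09-fold (adjusted p = 0.00362). The thioredoxin reductases thus went different ways, since Txnrd2, the mitochondrial form, fell by 0.52 on the log2 scale (SE 0.14, adjusted p = 0.00918). The difference between Txnrd1 and Txnrd2 itself was not tested.

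**Figure D5:**
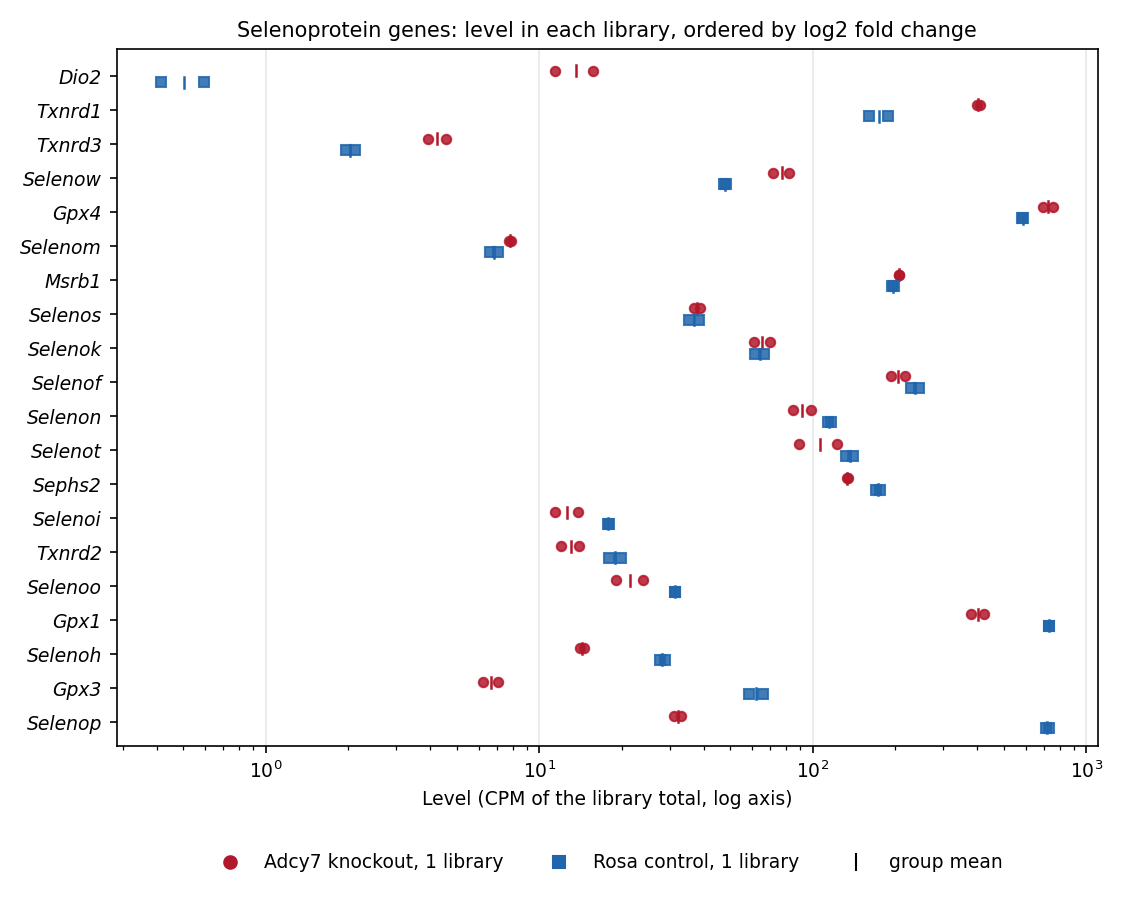
Level in CPM (log axis) of the 20 tested selenoprotein genes in the 2 Adcy7 knockout libraries (red circles) and the 2 Rosa control libraries (blue squares), ordered from the highest to the lowest log2 fold change. Dio2 stands at the top, with 11.4 and 15.7 CPM in knockout libraries beside 0.593 and 0.415 CPM in control libraries, and Selenop at the bottom, with 33.1 and 31.0 CPM beside 731 and 709.8 CPM in control libraries.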

How the data were processed

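Poly(A) RNA of 4 libraries was sequenced, 2 per group. The values that the authors deposited are estimated counts per Ensembl gene, rounded to whole numbers. The submitters' processing notes name GRCm39, HISAT2, StringTie, fastp and edgeR. Versions, settings and strand handling were not given in the sources used here. Among values of 1 to 40, 30.5% to 32.2% per library were multiples of 4, so 1 fragment may stand for several counts, and the counts may overstate the depth. Every 4th whole number is a multiple of 4, and whether the share exceeds what unstepped counts would give was not tested. Knockout columns, named KO3 and a number, were matched to sample titles by KO and that number.

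Symbols came from a table of Ensembl gene names (55141 of 55401 IDs matched; of IDs that share a symbol, the one with most counts was kept). The filter was filterByExpr, which left 15832 genes, and the scaling TMM. The test was the quasi-likelihood test of edgeR 4.0.16 (R 4.3.3) with bias-adjusted deviances, group as the only term and 2 residual degrees of freedom. P-values were adjusted by Benjamini-Hochberg over every tested gene, with a threshold of 0.05. SE is the size of the log2 fold change over the square root of F. Levels are in CPM, from deposited library totals. Transcripts over 200 aligned bases and 95% identity (blastn 2.17.0, GENCODE M21) were taken as near-identical copies.

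The members, lists and tests were chosen with earlier results of these data known. Every member is named. Per-library values were required for members with a log2 fold change of at least 1 in size that passed and for the 6 regulators Nfe2l2, Keap1, Bach1, Maff, Mafg and Mafk; of other lists up to 6 genes per direction with the smallest adjusted p are named, and others named to account for a count were chosen after their values were seen.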

Additional observations from a re-analysis of the deposited data

How the results depend on the processing

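Of the 32 genes, 27 kept their direction and their side of the threshold in all 13 alternatives, and 23 of these were called. The exceptions were Keap1, Txn1, Gsr and Gpx4, given above, and Osgin1, which did not pass in any setting and whose log2 fold change was -0.049 without knockout replicate 1 and -0.052 without control replicate 2 (range over the 4 libraries left out -0.052 to 0.14). The counts of 21 higher and 5 lower members were the same with RLE and upper-quartile scaling, library totals and DESeq2 1.42.0. They were also the same with a mean of at least 1 CPM, counts divided by 4 and the legacy quasi-likelihood dispersion (the last chosen after seeing the data). Across all the settings named so far, 23.3% to 28.7% of all tested genes were called higher and 22.6% to 28.9% lower. Without the low-count filter 21 members were higher and 4 lower, where 12.9% of all tested genes were called higher and 13.8% lower. Leaving out 1 library gave 19 to 21 higher and 4 to 6 lower members. It gave 18 to 22 higher and 15 to 23 lower other pathway genes, where 15 came without control replicate 2, and 4 to 5 higher and 6 to 10 lower selenoprotein genes. In each of the fits without 1 library, smaller shares of all tested genes were called higher and lower than with all 4 libraries. Whether the counts of these lists changed beyond that was not tested. The deviations of same-numbered libraries from their group means had a correlation of 0.03. With 2 libraries per group this cannot show whether same-numbered libraries shared a mouse or culture. With the replicate number as a block 21 members were higher and 5 lower. Other pathway genes then numbered 20 higher and 26 lower, and all tested genes 3932 higher and 3911 lower. The cause of these differences was not tested.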

Other observations

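Scaled by the length of the longest annotated transcript (GENCODE M21), Prdx5 and Prdx1 had the highest levels of the 32 genes in both groups. Prdx5 was at 2206 to 2494 CPM per kilobase in the knockout libraries and 1513 to 1619 in the control libraries, and Prdx1 at 1720 to 1877 in the knockout libraries and 804 to 946 in the control libraries. In the knockout libraries Gstm1 (1082 to 1205 CPM per kilobase) and Sqstm1 (831 to 916) came next, and in the control libraries Gpx1 (682 to 684) and Gpx4 (586 to 592) did. Slc7a11 had the lowest level of the 32 genes in the control libraries (2.11 to 2.99 CPM per kilobase) and ranked 17 in the knockout libraries (62.5 to 69.4), whereas Gpx3 ranked 32 in the knockout libraries (3.91 to 4.44) and 17 in the control libraries (36.7 to 41.4). Sod2 and Sod1 had overlapping levels in the knockout libraries (254 to 257 and 250.1 to 263 CPM per kilobase), and in the control libraries Sod2 was at 82.6 to 90.9 and Sod1 at 276 to 277. Which transcripts these cells use was not tested, and a gene's value depends on that length.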
